A study of Homo sapiens with 4 samples.

Results

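The genes described here are 9 transcription factors of neural stem cells and glia, SOX2, SOX4, SOX9, SOX11, OLIG1, OLIG2, POU3F2, NFIA and SALL2. They were taken by gene symbol, but with earlier results of these data known, and all 9 are among the 19314 genes listed. In the libraries, 7 of the 9 had a value above 0 and could be tested beside the 16595 genes with a value, while SOX11 and OLIG1 were listed without one. After knockdown of PTPRN, SOX4 was 6.34-fold lower and SOX9 was 3.71-fold lower, and OLIG2 was 1.98-fold higher at a low level. SOX2, SALL2, POU3F2 and NFIA did not pass the test, and all of them stood below 1 FPKM in every library.

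SOX proteins bind DNA through an HMG box. SOX2 keeps neural stem cells uncommitted, SOX9 and NFIA together start the making of glia, and SOX4 and SOX11 are close relatives that act in progenitors and young neurons. OLIG1 and OLIG2 are basic helix-loop-helix factors of the oligodendrocyte lineage. POU3F2 is a POU-domain factor and SALL2 a zinc finger factor, and with SOX2 and OLIG2 they are known as core factors of stem-like glioblastoma cells.

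The 4 libraries were made from U87, labelled as a human malignant glioma line and known as a standard glioblastoma model. In 2 libraries (PTPRN knockdown, titled PTP2) the cells carried the hairpin shPTPRN-2 against PTPRN, a receptor-type phosphatase-like protein of secretory granules. The other 2 (SCR) carried a scrambled hairpin, and both hairpins came from the lentiviral vector pLKO.1. The comparison asked which genes change when PTPRN is reduced. The study's methods describe U87 in DMEM with serum, and a medium with B27, insulin, EGF and bFGF for the assay of stem cell frequency. The growth text in the labels names hCMEC/D3, a brain endothelial line, in a serum-free medium with the same supplements. Which of these media the sequenced cells grew in cannot be told from these texts. Only 1 hairpin of the study was sequenced, so an effect of this hairpin on other genes and an effect of less PTPRN cannot be told apart. Nothing says that libraries of a group came from separate cultures, and p-values then measure only the spread between these libraries, which may be technical.

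Levels are given as FPKM, fragments per kilobase of transcript scaled to the mapped reads of the library, which can be compared between genes. Fold changes tested with limma are differences in log2(FPKM + 1), a scale that understates the change of low genes. Depth was estimated at 18100000 to 19600000 reads per library, and reads per gene given below are estimates from it. PTPRN itself (Gene ID 5798) was at 12.09 and 11.68 FPKM in the knockdown libraries and at 84.84 and 85.02 FPKM in the SCR libraries. It was 7.15-fold lower, as the labels imply (limma log2 fold change -2.74 ± 0.03 SE, adjusted p = 0.000148). Of the endothelial markers, 11 of 12 had a value, with a summed level of 4.20 to 4.85 FPKM in the knockdown libraries and 5.03 to 5.08 FPKM in SCR. The defining markers CDH5 and CLDN5 were at or near 0, between 0.01 and 0.03 FPKM and between 0 and 0.03 FPKM. PECAM1 was higher, at 1.24 FPKM in knockdown and 2.45 FPKM in SCR, and of the whole list 3 genes rose and 2 fell at an adjusted p of 0.05. The other 4 of these, named after their values were seen, were near or below 1 FPKM. TEK, KDR and ERG rose, from 0.525, 0.340 and 0.070 to 1.03, 0.860 and 0.810 FPKM, and VWF fell from 0.955 to 0.055 FPKM. The part of these genes in the results for the lineage factors was not tested. Without SCR replicate 1 the list had 1 rise and 2 falls. U87 is known to lack the CDKN2A locus, and the summed level of CDKN2A, CDKN2B and MTAP was 0.19 to 0.34 FPKM. Among the epithelial markers 0 of 7 genes were called by limma, with 1 at an unadjusted p under 0.05. EPCAM was at 0.23 to 0.33 FPKM. CLDN4, the highest of them and named after its values were seen, was at 0.46 to 1.11 FPKM. Of the myeloid markers 1 rose and 2 fell among 6 with a value, and 1 rose and 0 fell without SCR replicate 1. Their summed level was 345 to 363 FPKM in knockdown and 237 to 238 FPKM in SCR, nearly all of it CD68. CD68 is a lysosomal protein also made outside myeloid cells. The pan-leukocyte marker PTPRC was at 0.40 to 0.86 FPKM. CSF1R fell from 3.14 to 2.065 FPKM, and LYZ was at 1.67 to 2.93 FPKM and did not pass the test. CD14, named after its values were seen, fell from 0.845 to 0.285 FPKM. Beside the counts of these marker lists, 30.8% of all genes tested rose and 27.1% fell at an adjusted p of 0.05.

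SOX4 and SOX9 carried most of the expression of this group. SOX4 (Gene ID 6659) is a gene of 1 exon on chromosome 6, from 21593741 to 21598619 on the plus strand (GRCh38). Its FPKM was 0.90 and 1.10 in the knockdown libraries and 6.57 and 6.11 in SCR, from about 79 and 96 reads against 621 and 540. The groups did not overlap, and both SCR libraries stood more than 5 FPKM above both knockdown libraries. The means were 1.00 ± 0.141 and 6.34 ± 0.325 FPKM (SD, n = 2 each). The limma log2 fold change was -1.88 ± 0.07 SE (95% interval -2.07 to -1.68, adjusted p = 0.00041), and 0.940% of the genes tested had a lower one. With a pseudocount of 0.1 in place of 1 the log2 fold change was -2.55.

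The sequence around the SOX4 start is shown beside that of SOX2, since both are SOX genes of 1 exon and their levels lay far apart in these cells. Each holds 300 bases, from 250 before to 50 after the RefSeq start site (GRCh38.p14), at chr6:21593501-21593800 and chr3:181711675-181711974, both on the plus strand. Capitals mark the CCAAT box, the letters CCAAT on either strand.
SOX4: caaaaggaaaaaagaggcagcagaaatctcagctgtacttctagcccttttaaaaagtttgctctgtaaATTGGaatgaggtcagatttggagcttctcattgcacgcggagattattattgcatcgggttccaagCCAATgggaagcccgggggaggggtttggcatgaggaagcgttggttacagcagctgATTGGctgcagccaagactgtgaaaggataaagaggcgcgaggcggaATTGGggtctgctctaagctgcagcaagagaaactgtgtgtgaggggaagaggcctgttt
SOX2: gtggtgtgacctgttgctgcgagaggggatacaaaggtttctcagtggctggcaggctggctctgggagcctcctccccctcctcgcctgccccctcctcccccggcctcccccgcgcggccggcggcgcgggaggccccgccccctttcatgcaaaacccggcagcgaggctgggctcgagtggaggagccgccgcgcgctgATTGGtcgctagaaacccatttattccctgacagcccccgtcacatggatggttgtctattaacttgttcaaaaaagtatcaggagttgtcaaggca

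The SOX4 promoter holds 4 CCAAT boxes and the SOX2 promoter 1. Of the 35116 promoters in the RefSeq table, 34.6% hold at least 1 CCAAT box and 0.991% hold 4 or more. The SOX4 promoter has a GC content of 49.3% and 8 CpG dinucleotides, below the medians of 58.7% and 14 over all promoters, and the SOX2 promoter has 63.3% and 20. The SOX4 window also holds the letters CAGCTG, an E-box of the kind that basic helix-loop-helix factors bind, at 2 places, and 17.9% of all promoters hold them at least once. The promoters of 5 of the 9 genes were in the table, with 7 entries because NFIA has 3. None of the 7 holds the TATA box TATAAA on either strand, which 11.5% of all promoters do. These matches describe the letters of the windows and no binding was measured.

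SOX9 (Gene ID 6662), the factor of glial and neural crest fate, has 3 exons on chromosome 17, from 72121020 to 72126420 on the plus strand. Its FPKM was 2.84 and 2.74 in knockdown and 10.54 and 10.14 in SCR, from about 201 and 193 reads against 801 and 722. The groups did not overlap, and the libraries of a group lay close together, at 2.79 ± 0.0707 and 10.3 ± 0.283 FPKM (SD, n = 2 each). The limma log2 fold change was -1.58 ± 0.04 SE (95% interval -1.69 to -1.48, adjusted p = 0.000248), and 1.57% of the genes tested had a lower one. By the estimated reads, the ratio of SCR to knockdown was 3.71 for SOX9 (exact 95% interval 3.32 to 4.16) and 6.37 for SOX4 (5.43 to 7.51). These intervals cover counting error only. The difference between both falls was not tested across libraries. In bulk RNA, fewer cells with a transcript and less of it per cell cannot be told apart.

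OLIG2 (Gene ID 10215), the factor needed for oligodendrocyte precursors and a marker of diffuse glioma, moved the other way. It lies on chromosome 21, from 33025908 to 33029196 on the plus strand. Its FPKM was 1.15 and 0.91 in knockdown and 0.54 and 0.50 in SCR, from about 52 and 41 reads against 26 and 23. Both knockdown libraries stood above both SCR libraries, and the means were 1.03 ± 0.17 and 0.520 ± 0.0283 FPKM (SD, n = 2 each). The limma log2 fold change was 0.42 ± 0.07 SE (95% interval 0.21 to 0.62, adjusted p = 0.0117). The ratio of the estimated reads was 1.98, with an exact 95% counting interval of 1.38 to 2.85. The call was lost without SCR replicate 1 (adjusted p = 0.129) and without SCR replicate 2 (adjusted p = 0.144), while the log2 fold change stayed at 0.43 and 0.40. Its neighbour OLIG1 (Gene ID 116448), which starts 40.9 kb further along, was listed without a value in all 4 libraries, where 1 read would have given about 0.0247 FPKM.

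**Figure D1:**
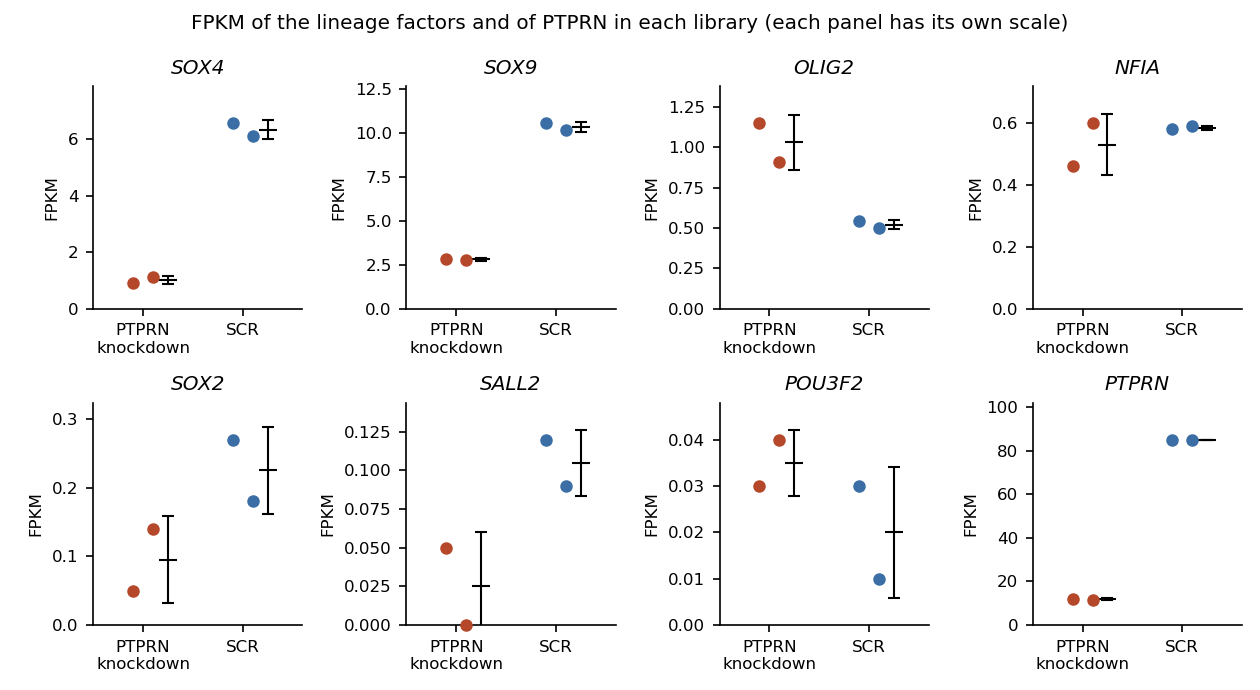
FPKM of SOX4, SOX9, OLIG2, NFIA, SOX2, SALL2, POU3F2 and PTPRN, each panel on its own scale. Points are single libraries (n = 2 per group), and the bar beside them is the mean with the SD. SOX4 and SOX9 sit at 0.90 to 2.84 FPKM in knockdown and at 6.11 to 10.54 FPKM in SCR, OLIG2 lies above its SCR libraries, and NFIA and POU3F2 overlap.

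NFIA (Gene ID 4774), the nuclear factor that works with SOX9 in gliogenesis, did not pass the test. It spans chromosome 1 from 61077274 to 61462788 and has 10 to 12 exons in its 4 matched transcripts. Its FPKM was 0.46 and 0.60 in knockdown and 0.58 and 0.59 in SCR, from about 79 and 103 reads against 107 and 102. The groups overlapped, and the log2 fold change was -0.05 (95% interval -0.21 to 0.11, limma adjusted p = 0.492). Its sign turned with quantile normalization, to 0.02, and without PTPRN knockdown replicate 1, to 0.01. The reads gave a ratio of 0.907 with an exact 95% counting interval of 0.740 to 1.11. This interval covers counting error only and is no limit of detection, so a change of NFIA is not excluded.

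The stem cell factors SOX2, SALL2 and POU3F2 rested on few reads. SOX2 (Gene ID 6657; chromosome 3, 181711924 to 181714436, plus strand) was at 0.05 and 0.14 FPKM in knockdown and at 0.27 and 0.18 FPKM in SCR, from about 2 and 6 reads against 13 and 8. The groups did not overlap, but the log2 fold change of -0.16 (95% interval -0.35 to 0.02) did not pass the test (limma adjusted p = 0.109). The ratio of SCR to knockdown reads was 2.52, with an exact counting interval from 1.07 to 6.58. SALL2 (Gene ID 6297; chromosome 14, 21521080 to 21537216, minus strand) was at 0.05 and 0 FPKM in knockdown and at 0.12 and 0.09 FPKM in SCR, from about 4 and 0 reads against 11 and 8. Its groups did not overlap either, and its log2 fold change of -0.11 (95% interval -0.22 to 0.01) did not pass the test (limma adjusted p = 0.0941). The counting interval of its ratio was wide, from 1.52 to 18.4 around 4.56. POU3F2 (Gene ID 5454; chromosome 6, 98834704 to 98838790, plus strand) was at 0.03 and 0.04 FPKM in knockdown and at 0.03 and 0.01 FPKM in SCR. It had 1 to 3 reads per library, a ratio of knockdown to SCR of 1.74 with a counting interval from 0.338 to 11.2, and a limma adjusted p of 0.607. SOX11 (Gene ID 6664) was listed without a value in all 4 libraries, where 1 read would have given about 0.00636 FPKM. Its SoxC relative SOX4 was the second highest of the group in SCR.

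Read per length, the order of the levels changed between the groups. In SCR it ran from SOX9 (10.3 FPKM) and SOX4 (6.34 FPKM) through NFIA (0.585 FPKM), OLIG2 (0.520 FPKM), SOX2 (0.225 FPKM) and SALL2 (0.105 FPKM) to POU3F2 (0.0200 FPKM). NFIA and OLIG2 lay within 0.1 FPKM of each other, which is inside the counting error of OLIG2. In the knockdown libraries SOX9 was again highest (2.79 FPKM), followed by OLIG2 (1.03 FPKM) and SOX4 (1.00 FPKM), which overlapped, and then by NFIA (0.530 FPKM). SOX2, POU3F2 and SALL2 were at 0.095, 0.035 and 0.025 FPKM there, and the last 2 overlapped. SOX4 and SOX9 made up 91.7% and 92.2% of the summed FPKM of these genes in SCR, and 68.2% and 69.4% in knockdown.

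At an adjusted p of 0.05, 1 of the 7 genes tested rose and 2 fell. Over all genes tested, 57.9% were called at this threshold, 30.8% higher and 27.1% lower, so these counts lie near the background. Where a change of 2-fold or more on the log2(FPKM + 1) scale was asked for together with an adjusted p up to 0.001, SOX4 and SOX9 fell and 0 genes of the group rose by limma, with 1 higher and 2 lower at an unadjusted p under 0.05. These thresholds called 6.69% of all genes tested, 2.63% higher and 4.06% lower. The stricter calls were lost for SOX4, SOX9 and every other gene with a pseudocount of 0.1, with the replicate number as a block and without any 1 of the 4 libraries, where adjusted p-values of SOX4 and SOX9 reached at most 0.0271 and 0.0229. With the pseudocount of 0.1 and a prior variance that follows the mean level (the eBayes trend) together, both passed again, at adjusted p-values of 0.000626 and 0.000304. Both libraries of 1 group lay beyond both of the other for 1 gene of the group that was higher (OLIG2) and 4 that were lower (SOX2, SOX4, SOX9 and SALL2), while 39.7% of all genes were higher and 35.8% lower in this sense. The median log2 fold change was -0.11 over the 7 genes and 0.01 over all genes tested. The deposited table marks 3583 genes as transcription factors, among them 7 of these 9, and of the 3194 with a value 28.6% rose and 27.7% fell at 0.05, and 1.97% and 3.35% at the stricter thresholds.

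**Figure D2:**
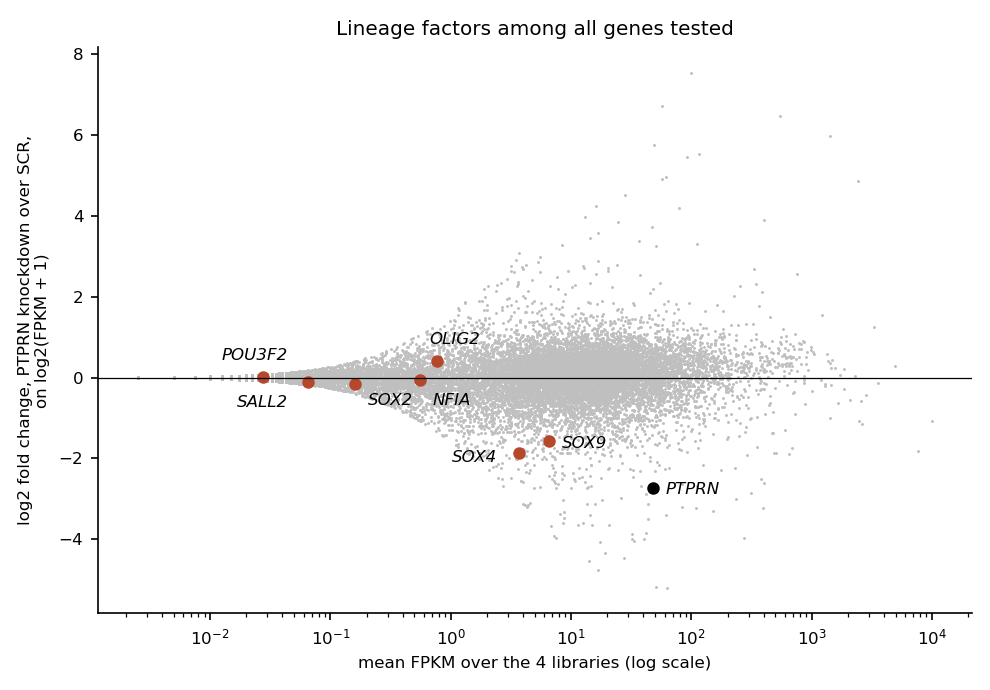
Log2 fold change of PTPRN knockdown over SCR on log2(FPKM + 1) against the mean FPKM over the 4 libraries on a log axis, with each of the 16595 genes tested as a grey point, the lineage factors in red and PTPRN in black. SOX4 (-1.88) and SOX9 (-1.58) lie near the lower edge of the cloud, and SOX2, SALL2 and POU3F2 lie at means where the pseudocount holds every gene close to 0.

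Most of these genes are compact. In the GENCODE 29 annotation SOX2, SOX4, SOX11, OLIG1 and POU3F2 have 1 exon, whereas 3.73% of the 16002 tested genes with a matched transcript have a transcript of 1 exon. SOX2, SOX9 and SOX11 have no other protein-coding gene within 500 kb, and SOX4 has 1, CDKAL1, which fell from 3.97 to 2.71 FPKM (log2 fold change -0.42 ± 0.05 SE, limma adjusted p = 0.00407). OLIG2 has 15, of which 11 were tested and 5 rose and 2 fell, with log2 fold changes from -0.74 to 0.93. Around OLIG1, in the same region, 8 of 14 rose and 2 fell. NFIA, POU3F2 and SALL2 did not pass the test themselves. Of their tested neighbours, 2 of 2 rose around NFIA and 1 of 2 fell around POU3F2. Around SALL2, 2 of 13 rose and 3 fell, with log2 fold changes from -1.08 to 1.24. Over all genes tested, 30.8% rose and 27.1% fell at an adjusted p of 0.05. For 8 of the 9 genes, all but POU3F2, the annotation places a non-coding gene over part of the span, SOX2-OT on the same strand as SOX2 and SOX9-AS1 on the opposite strand of SOX9 among them. None of these is a row of the deposited table. Whether reads were counted by strand is not given in the sources used here, so reads of overlapping transcripts cannot be told apart.

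The hairpin sequence is shown because it was the agent that set the groups apart. The target of shPTPRN-2 is printed with the 7 bases that pair with bases 2 to 8 of the antisense strand in capitals.
shPTPRN-2: aactgcctccaagGGCATATt
The longest matched transcript of each of the 9 genes was searched, and none holds the whole target of 21 bases. The 7-base site is in 1 place in POU3F2 and 1 in SOX11, and is not in those of SOX2, SOX4, SOX9, OLIG1, OLIG2, NFIA or SALL2. It occurs in 11.6% of the 16008 tested genes searched. The median log2 fold change was 0.01 both for genes with the site and for those without.

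The fall of SOX4 and SOX9 was set beside the rest of the SOX family, 15 further genes of which 9 had a value. Of these 9, 0 rose and 4 fell at an adjusted p of 0.05, beside 30.8% and 27.1% of all genes tested. None of the 9 passed the stricter thresholds (limma, with 5 lower and 0 higher at an unadjusted p under 0.05). SOX12, the third SoxC gene beside SOX4 and SOX11, fell from 16.8 ± 0.948 to 9.30 ± 0.877 FPKM (SD, n = 2 each; log2 fold change -0.79 ± 0.08 SE, limma adjusted p = 0.00293). SOX13 fell from 5.05 to 4.26 FPKM and SOX15 from 4.41 to 2.90 FPKM, with log2 fold changes of -0.20 and -0.47. The fourth was SOX5, at 1.10 FPKM in SCR and 0.730 FPKM in knockdown (-0.28), named here after its value was seen. Each of these folds was smaller in size than those of SOX4 and SOX9. The calls fell to 1 or 2 of 9 without any 1 library and to 2 with quantile normalization. The oligodendrocyte factor SOX10 was at 0 to 0.02 FPKM. The SOX genes with a value, 12 in all, summed to 45.6 and 43.8 FPKM in SCR and to 20.5 and 22.1 FPKM in knockdown. The share of SOX9 in this sum was 23.1% and 23.2% in SCR and 13.8% and 12.4% in knockdown, and that of SOX4 was 14.4% and 13.9% against 4.39% and 4.98%.

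**Figure D3:**
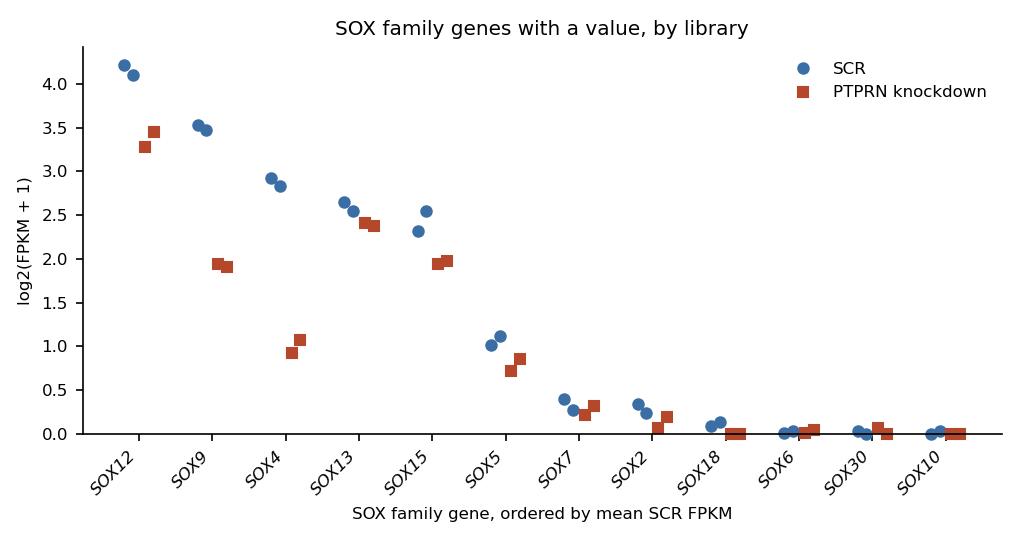
Log2(FPKM + 1) of the 12 SOX family genes with a value, ordered by their mean FPKM in SCR, with circles for the 2 SCR libraries and squares for the 2 PTPRN knockdown libraries. SOX12 is highest in both groups, SOX9 and SOX4 show the widest gaps, and 6 of the 12 genes lie below 0.5 in every library.

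Paralogs of the other factors were described in the same way, with 10 genes of the OLIG, POU3F, NFI and SALL families of which 5 had a value. By limma 0 rose and 2 fell at an adjusted p of 0.05, the same counts as at an unadjusted p under 0.05. Of all genes tested, 30.8% rose and 27.1% fell at the adjusted threshold. SALL1, a zinc finger relative of SALL2, fell from 29.03 to 15.5 FPKM (log2 fold change -0.87 ± 0.04 SE, adjusted p = 0.000523). The nuclear factor NFIX fell from 23.2 to 14.2 FPKM (-0.67 ± 0.04 SE, adjusted p = 0.000735). NFIC, the highest of the list, was at 40.5 FPKM in SCR and 40.8 in knockdown, and NFIB at 3.81 and 4.10 FPKM, and neither passed the test. So NFIC, NFIX and NFIB all stood above NFIA in every library, and SALL1 stood above SALL2. The median of the list was 0.01, and -0.04 and -0.06 with median-ratio scaling and quantile normalization. Over the 4 genes with a mean of at least 1 FPKM it was -0.33.

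Of 14 other transcription factors of stem-like glioblastoma cells, 10 had a value, and 1 rose and 4 fell. Their median log2 fold change was 0.02, and 0.12 with a pseudocount of 0.1. LHX2, named after its values were seen, rose from 0.020 to 0.295 FPKM. SOX5, already counted in the SOX family, was among those that fell. The shares over all genes tested, for this list and the next, were 30.8% higher and 27.1% lower at an adjusted p of 0.05. HES6, a factor that counters Notch signalling, fell from 9.75 to 4.06 FPKM (-1.10 ± 0.15 SE, limma adjusted p = 0.00671), and the homeobox gene VAX2 from 2.40 to 0.995 FPKM (-0.77 ± 0.09 SE, adjusted p = 0.00483). These calls were lost without either SCR library, when 0 of 10 passed. Of 21 neural stem and progenitor genes 20 had a value, and 3 rose and 11 fell. Without any 1 library 1 or 2 rose and 7 fell. The median log2 fold change was -0.15 over the 20 and -0.51 over the 12 with a mean of at least 1 FPKM. ID2, an inhibitor of basic helix-loop-helix factors, fell from 27.0 to 1.67 FPKM (-3.39 ± 0.10 SE, adjusted p = 0.000338). The intermediate filament gene NES (nestin) fell from 13.6 to 3.26 FPKM (-1.78 ± 0.06 SE, adjusted p = 0.000407). MSI2, an RNA-binding protein of progenitors, fell from 11.1 to 6.05 FPKM. PAX6 was at 9.65 FPKM in SCR and 9.66 in knockdown, and the Polycomb gene BMI1 at 12.6 and 13.9 FPKM, and neither passed the test.

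The genes of mature lineages moved in both directions. Beside each count that follows, 30.8% of all genes tested rose and 27.1% fell at an adjusted p of 0.05. Of 14 astrocyte genes 12 had a value, and 1 rose and 5 fell, but 1 and 2 without either SCR library. The median was -0.12 over the 12 and -0.95 over the 5 with a mean of at least 1 FPKM. Defining astrocyte markers lay near 0. GFAP was at 0.22 and 0.11 FPKM in knockdown and at 0.55 and 0.45 FPKM in SCR. ALDH1L1 was at 0 to 0.09 FPKM and S100B at 0 to 0.05 FPKM, and AQP4 had no value. ALDOC, a brain aldolase, fell from 51.8 to 10.0 FPKM (-2.26 ± 0.04 SE, limma adjusted p = 0.000166), and the gap junction gene GJA1 from 47.2 to 24.0 FPKM (-0.95 ± 0.05 SE). GLUL (glutamine synthetase) and NDRG2 fell too, by 0.22 and 1.08 on the log2 scale, whereas the glutamate transporter SLC1A3 rose from 5.90 to 10.0 FPKM (0.67 ± 0.04 SE). Of 14 oligodendrocyte lineage genes 10 had a value, and 2 rose and 5 fell, but 0 and 4 without either knockdown library. The median was -0.23 over the 10, and -0.61 with a pseudocount of 0.1. CNP fell from 25.5 to 18.5 FPKM and the precursor proteoglycan CSPG4 from 12.6 to 7.39 FPKM, and the growth factor receptor PDGFRA rose from 0.700 to 1.59 FPKM (0.61 ± 0.06 SE, adjusted p = 0.00315). Of 15 neuronal lineage genes 11 had a value, and 1 rose and 3 fell (median -0.01), but 1 and 1 without either knockdown library. SYP (synaptophysin) rose from 0.480 to 10.6 FPKM, SNAP25 fell from 10.2 to 3.81 FPKM and GAP43 from 6.19 to 2.86 FPKM, while TUBB3 and NCAM1 did not pass the test. Of 15 mesenchymal glioma genes, a program often set against the stem-like one, all had a value, and 7 rose and 6 fell. Its median was -0.005, with a range over the alternatives from -0.06 with quantile normalization to 0.02 without SCR replicate 2. FOSL1 rose from 116 to 575 FPKM, VIM from 1958 to 4665 FPKM and CD44 from 152 to 315 FPKM, and TGFBI fell from 698 to 114 FPKM.

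**Figure D4:**
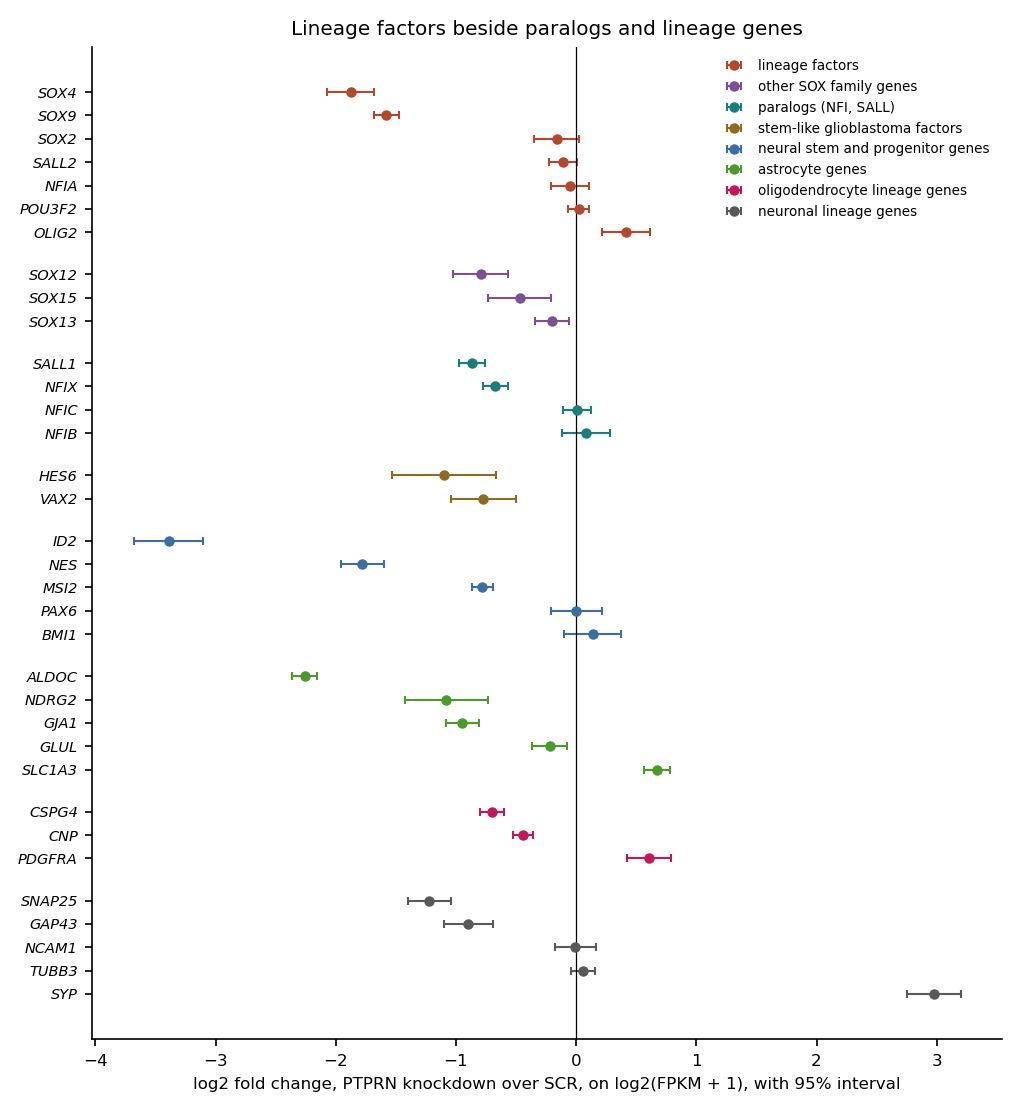
Log2 fold change of PTPRN knockdown over SCR on log2(FPKM + 1) with its 95% interval from limma, for the 7 lineage factors with a value and for up to 5 genes of each of 7 lists, those with the highest mean FPKM of at least 1, coloured by list (n = 2 libraries per group). The intervals of SOX4 and SOX9 lie between -2.07 and -1.48, ID2 and ALDOC lie lower still, and OLIG2, SLC1A3, PDGFRA and SYP lie above 0.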

How the data were processed

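RNA of U87 cells was sequenced in 4 libraries on a BGISEQ-500, single-end at 50 bases. The deposited values, made by the authors, are FPKM per gene and library, given to 2 decimals, and hold no counts. The submitters' processing notes name HISAT2 2.1.0 and hg19, while positions in the table start within 2 kb of the GRCh38 start for 87.8% of 19257 genes matched to RefSeq. The counting program is not given in the sources used here. Columns of the authors' own comparisons (fold changes and false discovery rates) were not used. Depth was estimated from the steps of low FPKM values in genes with 1 transcript of 500 to 1500 bases, where 91.3 to 94.5% of values lay within 0.2 of whole reads. The estimates were 18200000 and 18100000 reads for PTPRN knockdown and 19600000 and 18300000 for SCR. Reads per gene are rounded estimates, and their exact Poisson or Clopper-Pearson intervals at 95% cover counting error only.

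The 16595 genes with a value above 0 went into a limma fit (3.58.1, under R 4.3.3) of log2(FPKM + 1) on the group alone, and p-values were adjusted over all of them by the Benjamini-Hochberg method. Each gene had 3.72 degrees of freedom. With 2 libraries against 2, an exact permutation test of a single value cannot go below p = 0.333, so none is given. The fit was tried on data simulated for this comparison over 16595 genes. It recovered 98 of 100 genes changed by 1 on the log2 scale and 100 of 100 changed by 2. Of 16395 unchanged genes, 10 were called. Changed genes were drawn only from those with a mean log2(FPKM + 1) above 1. OLIG2, NFIA, SOX2, SALL2 and POU3F2 lie below this, so the recovery does not cover them. A far smaller part of the genes was changed than was called in the real data.

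The 9 genes, the 12 gene lists and the tests were chosen with earlier results of these data known. Named genes are the 9, PTPRN, the 6 genes of each list with the highest mean FPKM of at least 1, and defining markers near 0. Some genes that this rule picks are not reported here. A few others, said to be so, were named after their values were seen, as were the neighbouring genes. Alternatives were quantile normalization, a pseudocount lowered to 0.1, a filter that keeps genes at 1 FPKM or more in at least 2 libraries, median-ratio scaling, an eBayes trend, the replicate number as a block and leaving out each library. A pseudocount of 0.1 with an eBayes trend was added after seeing the data. Promoters are from RefSeq (GRCh38.p14), exons and overlaps from GENCODE 29, and the hairpin from the study's list of constructs. Promoters of SOX9, SOX11, OLIG1 and OLIG2 were not analysed here. The column that marks transcription factors gives families that do not match some genes, and was used for counts only.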

Additional observations from a re-analysis of the deposited data

How the results depend on the processing

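The log2 fold change of SOX4 ranged from -2.55 to -1.80, that of SOX9 from -1.85 to -1.54 and that of PTPRN from -2.83 to -2.71, each with an adjusted p of at most 0.05 in 11 of 11 alternatives. OLIG2 ranged from 0.33 to 0.86 and passed in 8 of 10, and the minimum FPKM removed it along with SOX2, SALL2, NFIA and POU3F2. The log2 fold change of NFIA, never past the threshold, turned to 0.0182 with quantile normalization and to 0.0136 without PTPRN knockdown replicate 1, the highest of -0.1185 to 0.0136 without 1 library. At a fold change of 2 and an adjusted p of 0.001, limma called 0 of the 7 lineage factors and 0 of all genes with a pseudocount of 0.1, and likewise with the replicate number as a block and without any 1 library (0 to 0). At an unadjusted p under 0.05 these settings called 2 to 4 of the 7, and 10185, 10108 and 8700 to 8790 of all genes. All genes at an adjusted p of 0.05 numbered 9603, and 6181 to 6332 without 1 library, where fewer samples enter the fit. With the pseudocount of 0.1 and the eBayes trend together, added after seeing the data, the stricter thresholds called 2 of the 7 and 1172 of all genes, beside 2 and 1111 as reported.

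Libraries with the same replicate number deviated together with a correlation of only 0.0635 over 11272 genes. With 2 pairs this does not show that the numbers pair the samples, and 3 lineage factors passed 0.05 with the replicate block. Of the other values over single genes and lists, 259 were rated as unchanged. For a gene this meant the same sign and call, and for a median of a list a move within the spread. A count of a list was rated so when it stayed within a set factor of the reported count, so some of these counts differ. Beyond these, 71 counts and medians of lists moved, 2 values of single genes changed sign and 2 lost their call. No scaling shifted the median of all genes by over 0.1. SOX2, SALL2 and POU3F2 rest on 0 to 13 reads per library, and their changes were not measurable with precision at this depth.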

Other observations

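Some members of the list of neural stem and progenitor genes were looked at after their values were seen. The 3 GLI factors of Hedgehog signalling all fell. GLI3 was at 6.75 and 7.28 FPKM in SCR and at 3.61 and 3.97 FPKM in knockdown (log2 fold change -0.74 ± 0.06 SE, limma adjusted p = 0.0017). GLI2 fell from 3.21 to 1.67 FPKM (-0.66 ± 0.05 SE, adjusted p = 0.00155), and GLI1, itself a target of the pathway, from 1.62 to 0.825 FPKM (-0.52 ± 0.09 SE, adjusted p = 0.0111). None of their libraries overlapped between the groups, and 35.8% of all genes tested were lower in this sense. Other genes of the list went the other way and were called higher by limma at an adjusted p of 0.05. Among them were FABP7, from 0.360 to 1.38 FPKM, and HES1, from 0.165 to 0.680 FPKM.

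The 4 ID genes, whose proteins hold basic helix-loop-helix factors off DNA, did not move together. ID3 rose from 3.46 to 8.38 FPKM (1.07 ± 0.07 SE, limma adjusted p = 0.00094), while ID2 fell. ID1 was at 4.71 and 6.85 FPKM in knockdown and at 4.56 and 4.51 FPKM in SCR and did not pass the test (0.27 ± 0.17 SE, adjusted p = 0.258), and ID4 fell from 0.465 to 0.210 FPKM (-0.28 ± 0.06 SE, adjusted p = 0.0188). Genes of the oligodendrocyte list were also looked at after their values were seen. GPR17, a receptor of oligodendrocyte precursors, was listed at 0 in both knockdown libraries and at 1.21 and 1.01 FPKM in SCR. The myelin gene MBP was at 0.06 and 0.07 FPKM in knockdown against 0.97 and 1.19 FPKM in SCR. MOG went the other way, from 0.500 to 0.735 FPKM (0.21 ± 0.05 SE, limma adjusted p = 0.0259). CLDN11 was at 0.325 FPKM in SCR and 0.320 FPKM in knockdown and did not pass the test.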
